A study of Mus musculus with 38 samples.

Results

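STAT6-deficient (STAT6 KO) Th2 cells were compared with wild-type (WT) Th2 cells in a pair of cultures in which GATA3 came from its own gene and not from a vector. The comparison used 4 of the 38 samples of the series, which are 4 of its 14 RNA libraries. All came from naive CD4+ T cells of C57BL/6J mice, sorted from spleen and lymph nodes and polarised in vitro, and the series examined how STAT proteins shape active enhancers and expression in T helper cells. No label states that the libraries are separate cultures or animals, and no group in the fit has a replicate library. The p-values therefore do not measure spread between replicates. They weigh a difference against how far the libraries, Th1 libraries included, depart from the sum of the fitted effects. Such departures may be biological or technical.

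The first pair consisted of STAT6 KO (Stat6 tm1) and WT Th2 cells kept for 7 days under Th2 conditions and then restimulated for 2 h on plate-bound CD3/CD28 antibodies with IL-4. The second pair consisted of STAT6 KO and WT Th2 cells labelled as day 5 cultures with a control vector. These cells were activated with anti-IFNG, transduced with retrovirus, given 10 ng/mL of IL-4 with anti-IFNG, and expanded with 50 U/mL of IL-2 plus IL-4. The labels of the Th2 vector cultures give no restimulation, whereas those of the Th1 vector cultures in the series give one of 2 h, and IL-2 is named for the day 5 pair alone. Day, vector, IL-2 and restimulation therefore cannot be told apart between the pairs. Each group is 1 library, so each pair is 1 library against 1.

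STAT6 is the transcription factor that the IL-4 receptor activates, and in T helper cells it drives the Th2 programme, in part through Gata3, which encodes the lineage-defining factor of Th2 cells. Th2 cells secrete IL-4, IL-5 and IL-13, whereas the Th1 lineage depends on T-bet (gene Tbx21) and secretes interferon gamma. Interferons act on interferon-stimulated genes, many of which carry binding elements for STAT or IRF proteins.

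Expression is given as FPKM, fragments scaled to transcript length and library size, and differences as STAT6 KO minus WT on log2(FPKM + 1), a scale that understates the change of low genes. Entries with at least 3 FPKM in at least 1 library of each pair were kept, which left 8070 of 23700 entries. Tmem86b, at 3.00 FPKM in the pair where it was lower, lay just inside this limit, and 2310067B10Rik, also at 3.00 FPKM after rounding, lay just outside.

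The 4 libraries had 9833 to 10046 entries at 1 FPKM or more and between 5.54% and 6.44% of summed FPKM in small RNA genes. The 8 CD4 T cell markers (Cd3d, Cd3e, Cd3g, Cd4, Cd28, Thy1, Cd5, Cd2) summed to 1828 FPKM in STAT6 KO and 1637 FPKM in WT cells on day 7, and to 1085 FPKM in STAT6 KO and 1091 FPKM in WT cells on day 5, and none was at 0. Markers of other cell types were low. The 2 CD8 T cell markers summed to 3.65 FPKM in STAT6 KO and 5.65 FPKM in WT cells on day 7, and to 1.87 FPKM in STAT6 KO and 2.05 FPKM in WT cells on day 5, nearly all of it Cd8b1. The 6 B cell markers summed to 0.540 to 1.20 FPKM per library and the 5 NK cell markers to 10.1 FPKM in STAT6 KO cells on day 7 (Klrd1 alone 9.44 FPKM) and to 0.112 to 0.332 FPKM in the other libraries. The 7 myeloid markers summed to 10.8 FPKM in WT cells on day 7 (Emr1 alone 8.42 FPKM) and to 1.15 to 3.96 FPKM elsewhere, and the 5 mast cell and basophil markers to 10.2 FPKM in WT cells on day 7 (Cpa3 alone 10.2 FPKM) and to 0.712 to 1.31 FPKM elsewhere. The part of these markers in the results was not tested.

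Stat6 (mm9 chr10:127080042-127098043) had 34.6 FPKM in STAT6 KO and 35.6 FPKM in WT cells on day 7, and 36.1 FPKM in STAT6 KO and 65.9 FPKM in WT cells on day 5. RNA from the locus was thus present in every library, and the mean difference of -0.45 ± 0.20 did not pass the test (standard error; limma, adjusted p = 0.28). The labels do not give the part of the gene that the allele alters, so a value over the whole locus does not check the genotype. 1 label field of the control-vector libraries speaks of a Gata3 vector. Gata3 had 29.7 FPKM (STAT6 KO) and 95.7 FPKM (WT) in these libraries, against 377 FPKM (STAT6 KO) and 589 FPKM (WT) in the libraries titled GATA3 vector.

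Across the 8070 entries the differences of the 2 pairs had a Pearson correlation of 0.65 over genes, which are not independent replicates. The differences spread more widely on day 7 (SD 0.72) than on day 5 (SD 0.59), and their medians were 0.05 and -0.01. On day 7, 354 entries (4.39%) were at least 2-fold higher and 427 (5.29%) at least 2-fold lower in STAT6 KO cells, and on day 5 these were 285 (3.53%) and 184 (2.28%). In both cultures 153 entries (1.9%) were at least 2-fold higher and 163 (2.02%) at least 2-fold lower, and the counting intervals of STAT6 KO and WT were apart in both pairs for 150 and 161 of them. Another 251 entries were 2-fold different in 1 culture and within 0.5 (log2) in the other. They were made up of 92 higher and 106 lower on day 7 alone, and 49 higher and 4 lower on day 5 alone. In opposite directions lay 22 entries (0.273%).

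**Figure D1:**
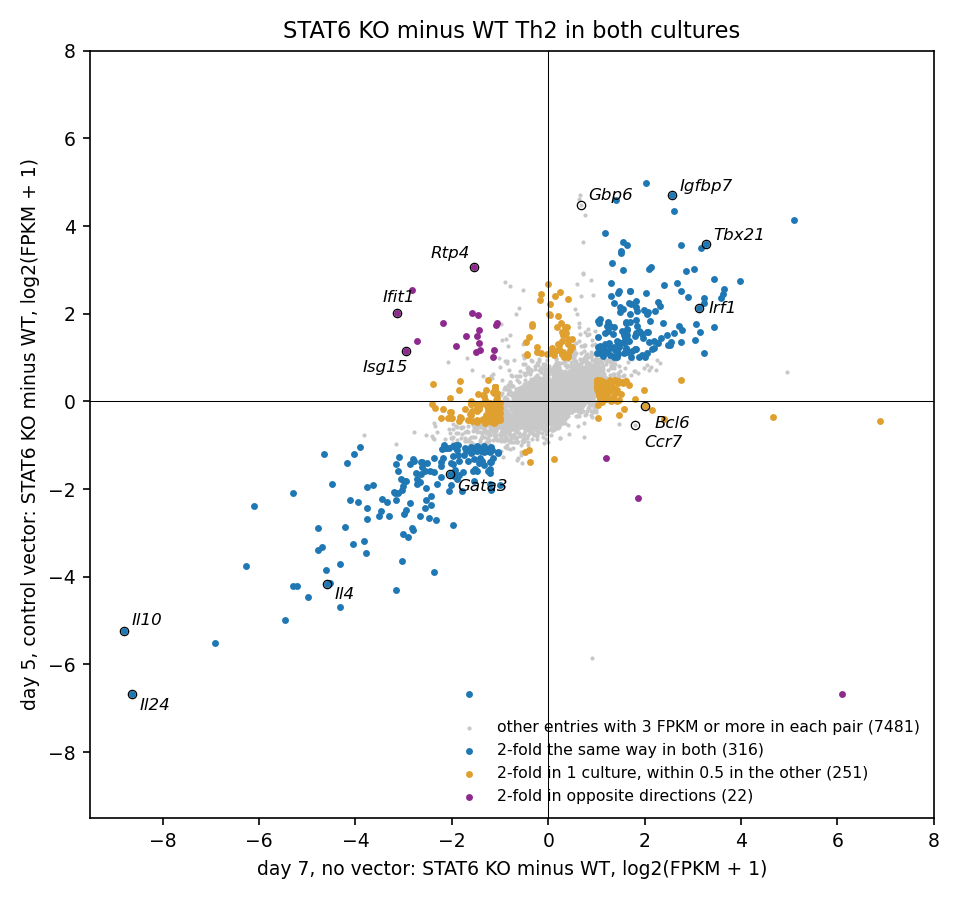
STAT6 KO minus WT differences, log2(FPKM + 1), on day 7 (horizontal) and on day 5 (vertical), 1 point per entry with at least 3 FPKM in each pair. The 316 entries that were 2-fold different the same way lie along the diagonal, from Il24 and Il10 to Igfbp7 and Tbx21, while Ifit1, Isg15 and Rtp4 lie in the upper left, lower in STAT6 KO on day 7 and higher on day 5.

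The mean of the 2 differences was tested with limma in 1 fit over 12 libraries, 10775 entries at 1 FPKM or more in at least 2 libraries, with Benjamini-Hochberg adjustment. STAT6 KO cells were called higher for 176 entries (1.63%) and lower for 249 (2.31%), 425 in all (3.94%), of which 347 passed the limit of 3 FPKM. All 425 differed in the same direction in both pairs, which the fit in part sets, since the disagreement of the pairs is in its spread. The count depended on the libraries. It was 57 without STAT6 KO and 53 without WT of day 7, and 278 without STAT6 KO and 252 without WT of day 5, each resting on the pair that was left. Of 60 named genes called, 16 stayed called without each of the 4 libraries in turn: Il24, Il10, Il5, Tnfrsf8, Epas1, Rnd3, Htr1b, Calcrl, Asb2, Mt1, Nfil3, Ccr4, Tbx21, Igfbp7, Amica1 and Ly6c1. The other 44 named calls, Il4 and Gata3 among them, were lost without at least 1 library.

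The 3 largest falls among the named genes were in cytokine genes, Il24, Il10 and Il6. Of 11 Th2-associated cytokine genes, 6 fell in STAT6 KO cells, none rose and 5 did not pass the test, and the median difference was -3.14, against 0.03 over all 10775 entries. For this list and those below, the shares over all tested entries were 2.31% called lower and 1.63% called higher. The lists were chosen with earlier results of these data known, so their counts and medians describe them and are no test of the lists. Fewer cells making a cytokine and less RNA per cell cannot be told apart in these bulk libraries.

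Il4 (mm9 chr11:53425963-53432167), the defining Th2 cytokine, had 20.5 FPKM in STAT6 KO and 513 FPKM in WT cells on day 7, and 8.71 FPKM in STAT6 KO and 173 FPKM in WT cells on day 5. Both STAT6 KO libraries lay far below both WT libraries, and the mean difference was -4.37 ± 0.52 (adjusted p = 0.016). Without a library of day 5 the adjusted p reached 0.084, and without one of day 7 it reached 0.19.

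The Il4 promoter is printed because it holds the spaced palindrome TTCNNNNGAA, the form of element that STAT6 is known to bind. The 250 bases before the start were read from RefSeq on GRCm38.p6 (chr11:53618666-53618915, minus strand). Capitals mark the 1 match to TTCNNNNGAA, which begins 167 bases before the start. Il4 is also among the genes lower in both cultures whose promoters held TTCNNNGAA and GAAANNGAAA, elements taken up below. Those promoters were searched in a window that ran past the start, and these matches are not marked here. A match is a description of the letters and not a binding site.
Il4: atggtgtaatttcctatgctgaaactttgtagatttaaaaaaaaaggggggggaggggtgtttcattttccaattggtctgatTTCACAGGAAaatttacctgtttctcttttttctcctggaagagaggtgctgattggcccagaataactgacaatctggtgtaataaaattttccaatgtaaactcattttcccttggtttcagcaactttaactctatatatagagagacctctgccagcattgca

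Il24 and Il10 encode cytokines of the IL-10 family. Il24 had 0.480 FPKM in STAT6 KO and 589 FPKM in WT cells on day 7, and 0.029 FPKM in STAT6 KO and 105 FPKM in WT cells on day 5, a mean difference of -7.66 ± 0.55 (adjusted p = 0.0048). Il10 (mm9 chr1:132916422-132921547) had 0.998 FPKM in STAT6 KO and 894 FPKM in WT cells on day 7, and 0.216 FPKM in STAT6 KO and 45.0 FPKM in WT cells on day 5 (-7.02 ± 0.80, adjusted p = 0.015). Both were near 0 in the STAT6 KO libraries, and the WT level of Il10 differed between the cultures more than that of Il24. Il6, a pleiotropic inflammatory cytokine, had 0.119 FPKM (STAT6 KO) and 133 FPKM (WT) on day 7, and 0.120 FPKM (STAT6 KO) and 50.2 FPKM (WT) on day 5. Its mean difference was -6.21 ± 0.46 (adjusted p = 0.0049).

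Il31, a cytokine linked to itch, had 61.7 FPKM in STAT6 KO and 1708 FPKM in WT cells on day 7, and 12.2 FPKM in STAT6 KO and 137 FPKM in WT cells on day 5 (-4.07 ± 0.36, adjusted p = 0.0090). It kept a measurable level without STAT6. Il5, which drives eosinophil growth, had 0.066 FPKM (STAT6 KO) and 4.53 FPKM (WT) on day 7, and 0.099 FPKM (STAT6 KO) and 15.4 FPKM (WT) on day 5 (-3.14 ± 0.34, adjusted p = 0.013).

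Il13, which lies in the same cluster as Il4 and Il5, did not follow them past the test. It had 48.4 FPKM in STAT6 KO and 74.8 FPKM in WT cells on day 7, and 15.3 FPKM in STAT6 KO and 38.9 FPKM in WT cells on day 5. Every STAT6 KO value was below its own WT value, but the 2 groups overlapped across cultures and the mean difference was -0.95 ± 0.83 (adjusted p = 0.57). Csf2, which encodes GM-CSF, had 135 FPKM (STAT6 KO) and 342 FPKM (WT) on day 7, and 36.6 FPKM (STAT6 KO) and 102 FPKM (WT) on day 5 (-1.39 ± 0.37, adjusted p = 0.11). Il3, Il9 and Areg did not pass the test either, with mean differences of -1.19, -0.96 and 0.34.

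**Figure D2:**
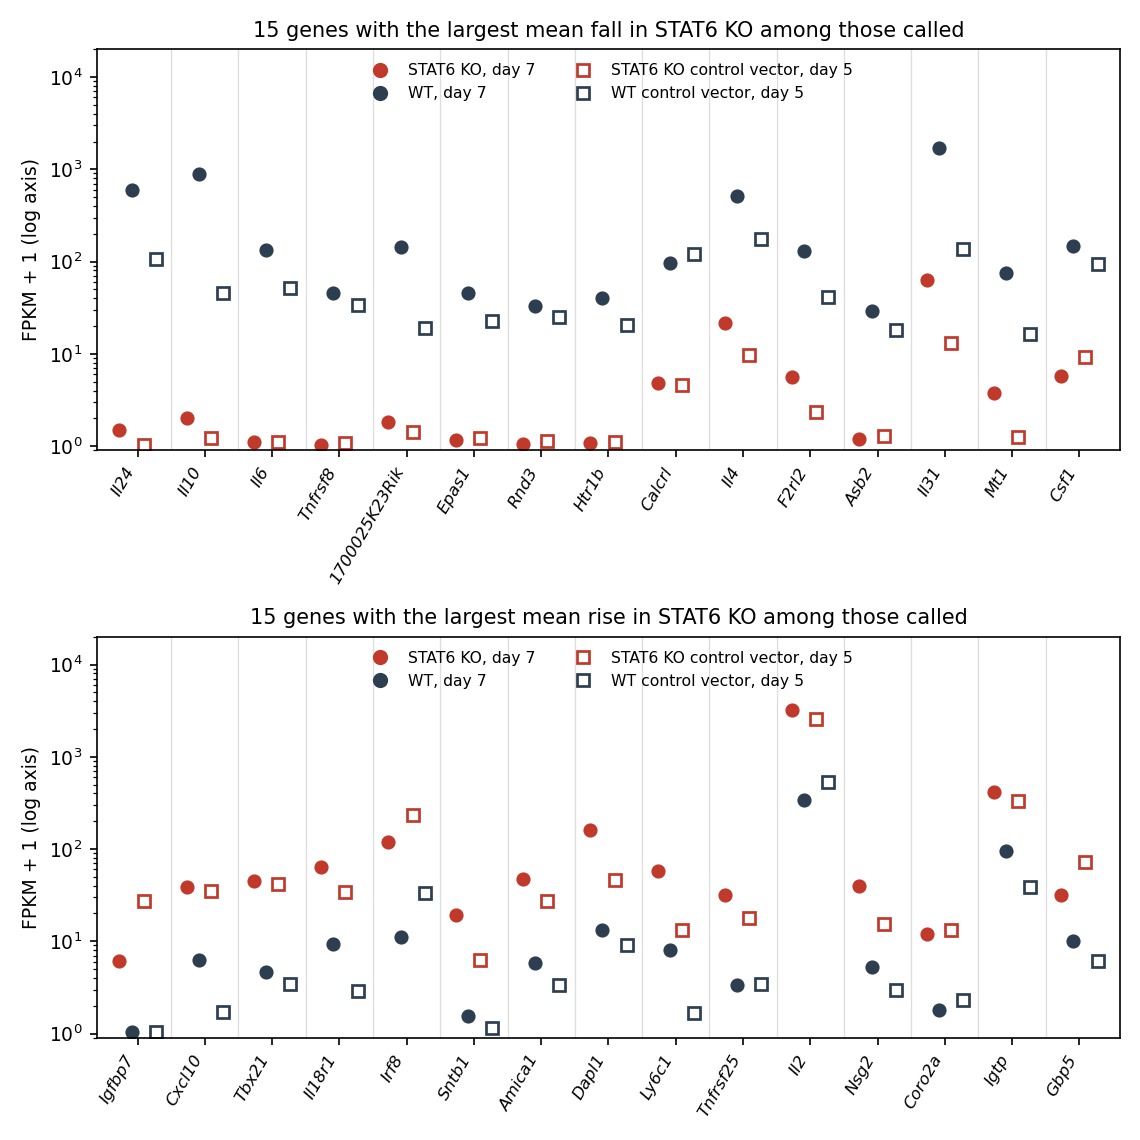
FPKM + 1 (log axis) in each of the 4 libraries, with STAT6 KO in red and WT in dark blue, circles for day 7 and squares for day 5. The panels show the 15 genes with the most negative (top) and the 15 with the most positive (bottom) mean difference among genes called and 2-fold different in both cultures; in each of the 30 genes both differences have the same sign.

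Of 9 Th2 transcription factor genes tested, 4 fell, none rose and 5 did not pass the test (median -1.85). Gata3 (mm9 chr2:9778705-9800227) had 14.3 FPKM in STAT6 KO and 62.1 FPKM in WT cells on day 7, and 29.7 FPKM in STAT6 KO and 95.7 FPKM in WT cells on day 5, so that Gata3 RNA was lower and still present without STAT6. Its mean difference was -1.85 ± 0.20 (adjusted p = 0.013), and the adjusted p reached 0.051 without a library of day 5 and 0.15 without one of day 7. Epas1, which encodes the hypoxia-inducible factor HIF-2 alpha, had 0.169 FPKM (STAT6 KO) and 44.6 FPKM (WT) on day 7, and 0.209 FPKM (STAT6 KO) and 21.5 FPKM (WT) on day 5 (-4.75 ± 0.26, adjusted p = 0.0019). It differed more widely than Gata3 and was near 0 in both STAT6 KO libraries.

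Nfil3, a basic leucine zipper repressor, had 3.96 FPKM (STAT6 KO) and 80.8 FPKM (WT) on day 7, and 4.14 FPKM (STAT6 KO) and 48.2 FPKM (WT) on day 5 (-3.65 ± 0.21, adjusted p = 0.0023). Batf, an AP-1 family factor, had 36.2 FPKM (STAT6 KO) and 246 FPKM (WT) on day 7, and 28.0 FPKM (STAT6 KO) and 98.7 FPKM (WT) on day 5 (-2.26 ± 0.27, adjusted p = 0.016). Both genes had close STAT6 KO levels in the 2 cultures. Pparg, Maf, Junb, Gfi1 and Irf4 did not pass the test. Maf had 0.763 FPKM (STAT6 KO) and 8.24 FPKM (WT) on day 7, and 1.52 FPKM (STAT6 KO) and 3.47 FPKM (WT) on day 5 (adjusted p = 0.074).

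Among 9 receptor genes of Th2 cells tested, 6 fell, none rose and 3 did not pass the test (median -2.05). Tnfrsf8, which encodes the TNF receptor CD30, had 0.038 FPKM in STAT6 KO and 44.5 FPKM in WT cells on day 7, and 0.077 FPKM in STAT6 KO and 33.0 FPKM in WT cells on day 5 (-5.22 ± 0.17, adjusted p = 0.00087). It was all but silent in both STAT6 KO libraries. The chemokine receptor gene Ccr4 had 16.7 FPKM (STAT6 KO) and 94.5 FPKM (WT) on day 7, and 17.2 FPKM (STAT6 KO) and 92.1 FPKM (WT) on day 5 (-2.39 ± 0.13, adjusted p = 0.0022). Its levels were nearly the same in the 2 cultures. The others that fell were Ccr8 (-3.10), Icos (-2.05), Il4ra (-1.59) and Il17rb (-1.46), which encode a chemokine receptor, a costimulatory receptor, the IL-4 receptor alpha chain and a receptor chain for IL-25. Il1rl1, which encodes the IL-33 receptor, had 2.22 FPKM (STAT6 KO) and 44.3 FPKM (WT) on day 7 but 1.46 FPKM (STAT6 KO) and 3.16 FPKM (WT) on day 5, and did not pass the test (adjusted p = 0.28).

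Further genes with large falls lay outside these lists. Htr1b, a serotonin receptor gene, had 0.087 FPKM (STAT6 KO) and 39.1 FPKM (WT) on day 7, and 0.111 FPKM (STAT6 KO) and 19.5 FPKM (WT) on day 5 (-4.71 ± 0.24, adjusted p = 0.0017). Calcrl, which encodes the calcitonin receptor-like receptor, had 3.79 FPKM (STAT6 KO) and 95.4 FPKM (WT) on day 7, and 3.58 FPKM (STAT6 KO) and 118 FPKM (WT) on day 5 (-4.52 ± 0.21, adjusted p = 0.0013). In these genes, too, both STAT6 KO libraries lay below both WT libraries. Rnd3, a small GTPase gene, differed by -4.72, Asb2, a ubiquitin ligase subunit gene, by -4.22, the metallothionein gene Mt1 by -4.02 and Csf1, which encodes macrophage colony-stimulating factor, by -4.01. Of 10 listed genes of the direct IL-4 response, 5 entered the fit (Socs1, Socs2, Socs3, Cish, Xbp1). None of these 5 passed the test, and their median difference was -0.61. The rest of the list was not tested, and Il4ra is counted with the receptors instead, so this list does not settle whether the IL-4 response fell.

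Tbx21 and some genes of the interferon response rose in STAT6 KO cells. Of 19 Th1 genes, 3 rose (Tbx21, Il18r1 and Lta), none fell and 16 did not pass the test, and the median difference was 1.53. Tbx21 (mm9 chr11:96959321-96976645) had 43.7 FPKM in STAT6 KO and 3.61 FPKM in WT cells on day 7, and 40.4 FPKM in STAT6 KO and 2.43 FPKM in WT cells on day 5. Its levels were close in the 2 cultures, and the mean difference of 3.44 ± 0.12 (adjusted p = 0.00087) stayed called without any 1 of the 4 libraries. Il18r1, which encodes the IL-18 receptor, had 63.1 FPKM (STAT6 KO) and 8.46 FPKM (WT) on day 7, and 33.4 FPKM (STAT6 KO) and 1.90 FPKM (WT) on day 5 (3.16 ± 0.30, adjusted p = 0.010).

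Ifng, the interferon gamma gene, had 136 FPKM in STAT6 KO and 14.1 FPKM in WT cells on day 7, and 37.3 FPKM in STAT6 KO and 2.40 FPKM in WT cells on day 5. The STAT6 KO values were the higher in each culture, but the mean difference of 3.33 ± 1.36 did not pass the test (adjusted p = 0.24). The chemokine gene Xcl1 had 65.7 FPKM (STAT6 KO) and 0.945 FPKM (WT) on day 7, and 268 FPKM (STAT6 KO) and 14.4 FPKM (WT) on day 5 (mean difference 4.61, adjusted p = 0.069). Cxcr3 and Nkg7 also missed the threshold, with mean differences of 2.57 and 2.69. Il12rb1, the common IL-12 receptor chain gene, was the lower in STAT6 KO cells on day 7 (7.33 FPKM, against 32.9 FPKM in WT) and differed less on day 5 (36.5 FPKM, against 43.0 FPKM in WT).

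Of 27 interferon response genes tested, 8 rose (Tgtp1, Irgm1, Irgm2, Gbp3, Gbp5, Igtp, Irf8 and Cxcl10), none fell and 19 did not pass the test (median 1.33). The first 6 encode interferon-inducible GTPases of families with near-identical copies, among which reads may be shared, so their single values are uncertain. Irf8, an interferon regulatory factor gene, had 119 FPKM in STAT6 KO and 10.0 FPKM in WT cells on day 7, and 233 FPKM in STAT6 KO and 32.6 FPKM in WT cells on day 5 (3.12 ± 0.31, adjusted p = 0.012). Both STAT6 KO libraries were above both WT libraries. Cxcl10, an interferon-inducible chemokine gene, had 37.4 FPKM (STAT6 KO) and 5.32 FPKM (WT) on day 7, and 34.3 FPKM (STAT6 KO) and 0.730 FPKM (WT) on day 5 (3.48 ± 0.44, adjusted p = 0.018). Its STAT6 KO level hardly differed between cultures, and its locus overlaps Art3. Irf1 had 557 FPKM (STAT6 KO) and 62.5 FPKM (WT) on day 7, and 268 FPKM (STAT6 KO) and 60.9 FPKM (WT) on day 5, and just missed the threshold (2.63 ± 0.51, adjusted p = 0.054). The test was lost without at least 1 library for all 8 interferon response genes.

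The Irf8 promoter is printed because it stands for a set: TTCNNNGAA, a spacing known for several STAT proteins, was found in 22 of the 118 promoters (18.6%) matched to genes higher in both cultures, in 8 of 128 (6.25%) of those lower in both, and in 537 of 6457 (8.32%) of all entries above the 3 FPKM limit. The 4-base spacing TTCNNNNGAA was in 13 of 118 (11%), 11 of 128 (8.59%) and 424 of 6457 (6.57%). In the whole table of 27025 promoters the 3-base spacing was in 2582 (9.55%) and the 4-base spacing in 2164 (8.01%). Windows ran from 250 bases before to 50 after the start, both palindromes read the same on either strand, and no test was made. In the Irf8 sequence (RefSeq, GRCm38.p6, chr8:120736108-120736357, plus strand), capitals mark 2 matches.
Irf8: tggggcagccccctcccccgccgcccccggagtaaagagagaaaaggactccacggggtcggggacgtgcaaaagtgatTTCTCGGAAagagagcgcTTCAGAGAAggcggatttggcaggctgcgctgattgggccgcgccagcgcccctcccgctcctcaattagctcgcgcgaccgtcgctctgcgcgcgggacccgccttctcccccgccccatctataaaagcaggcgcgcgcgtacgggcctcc

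Genes outside the Th1 and interferon lists rose as well. Il2, the T cell growth factor gene, had 3230.5 FPKM in STAT6 KO and 341 FPKM in WT cells on day 7, and 2538 FPKM in STAT6 KO and 535 FPKM in WT cells on day 5 (2.74 ± 0.32, adjusted p = 0.015). Both STAT6 KO libraries were above both WT libraries. Igfbp7, an insulin-like growth factor binding protein gene, had 5.13 FPKM (STAT6 KO) and 0.030 FPKM (WT) on day 7, and 26.0 FPKM (STAT6 KO) and 0.032 FPKM (WT) on day 5 (3.64 ± 0.48, adjusted p = 0.021). WT cells had next to none of it. Of 20 early response genes of T cell receptor signalling, 5 rose (Il2, Cd69, Tnf, Jun and Dusp1), none fell and 15 did not pass the test, and the median difference was 0.38.

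The other T cell lists held few calls or calls in both directions. Of 9 regulatory T cell genes, Foxp3 rose and Entpd1 and Tnfrsf18 fell. Foxp3, the lineage factor of these cells, had 4.53 FPKM in STAT6 KO and 0.300 FPKM in WT cells on day 7, and 8.38 FPKM in STAT6 KO and 0.155 FPKM in WT cells on day 5 (2.55 ± 0.39, adjusted p = 0.029), while its locus overlaps Ccdc22. Of 6 Th17 genes, Rora rose (1.28) and Il17f fell (-2.56). Il17f had 2.27 FPKM (STAT6 KO) and 17.1 FPKM (WT) on day 7, and 3.73 FPKM (STAT6 KO) and 28.9 FPKM (WT) on day 5. Of 12 naive and memory genes, 1 rose and 1 fell, the chromatin organiser gene Satb1 (-1.54). Of 7 genes of common gamma chain receptors, Il4ra alone passed the test (-1.59). None of the 9 cytotoxic granule, 5 follicular helper and 7 STAT family genes passed it.

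Most genes of the metabolic and secretory lists had negative differences. Of 15 cholesterol synthesis genes, all 15 had a negative mean difference (median -1.06) and 3 fell past the test, Lss and Dhcr7 among them. By size, 14 of the 15 were at least 2-fold lower in STAT6 KO cells on day 7 (median -1.38) and 6 on day 5 (median -0.72). Over all 8070 entries the shares 2-fold lower were 5.29% on day 7 and 2.28% on day 5. Lss, which encodes lanosterol synthase, had 4.55 FPKM in STAT6 KO and 24.9 FPKM in WT cells on day 7, and 6.85 FPKM in STAT6 KO and 20.8 FPKM in WT cells on day 5 (-1.85 ± 0.33, adjusted p = 0.043). Of 14 glycolysis genes, all 14 had a negative mean difference (median -0.85) and 1 fell, Tpi1 (-1.27). Of 15 secretory pathway genes 1 fell, the endoplasmic reticulum stress gene Creld2 (-0.94, median of the list -0.62), and of 20 cell cycle genes none passed the test (median -0.19). Over all 10775 entries 4882 mean differences were negative. Each of these calls was lost without at least 1 library.

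**Figure D3:**
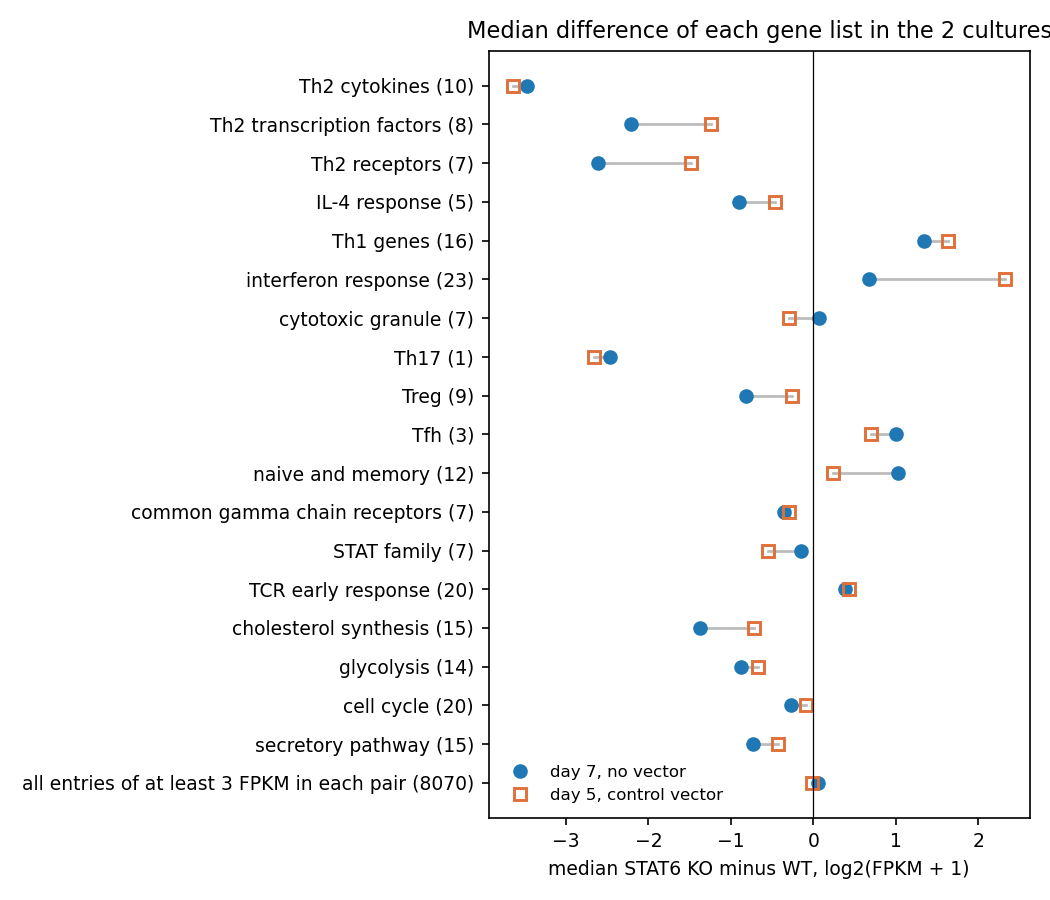
Median STAT6 KO minus WT difference, log2(FPKM + 1), of each gene list on day 7 (filled circles) and day 5 (open squares), over the members with at least 3 FPKM in each pair (number in brackets). The interferon response list has the widest gap, with a median of 0.68 on day 7 and 2.33 on day 5.

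The interferon response genes had different values in the 2 cultures, as given here by size; the test of the change follows. Of the 23 with at least 3 FPKM in each pair, 11 were 2-fold higher and 5 were 2-fold lower in STAT6 KO cells on day 7, whereas 21 were 2-fold higher and none was lower on day 5. The difference was larger on day 7 in 2 of the 23, against 4597 of the 8070 entries, and the median of the day 7 difference minus the day 5 difference was -1.91, against 0.06 over all entries. Among the 8070 entries, 19 (0.235%) were 2-fold lower in STAT6 KO on day 7 and 2-fold higher on day 5. Of these, 5 belong to the interferon response list: Ifit1, Ifit3, Isg15, Irf7 and Stat2. The others were Rtp4, Xaf1, Slfn8, Dhx58, Ifih1, Zbp1, Trim30a, Trim12c, Ifi27l2a, Lgals3bp, Il1r2, Id3, 1810009J06Rik and Gm2663.

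Ifit1 (mm9 chr19:34715379-34724499), which encodes an antiviral RNA-binding protein, had 3.56 FPKM in STAT6 KO and 39.3 FPKM in WT cells on day 7, and 3.53 FPKM in STAT6 KO and 0.121 FPKM in WT cells on day 5. The STAT6 KO level was the same in both cultures, and the WT level was the highest of the 4 libraries on day 7 and the lowest on day 5. Isg15 (mm9 chr4:155573533-155574927), which encodes a ubiquitin-like modifier, had 6.76 FPKM (STAT6 KO) and 59.3 FPKM (WT) on day 7, and 5.60 FPKM (STAT6 KO) and 1.95 FPKM (WT) on day 5. Irf7, the regulator of type I interferon genes, had 8.55 FPKM (STAT6 KO) and 27.4 FPKM (WT) on day 7, and 11.9 FPKM (STAT6 KO) and 2.19 FPKM (WT) on day 5. All 3 genes show the same order of the 4 libraries at their ends, with WT of day 7 at the top and WT of day 5 at the bottom. Stat2, a subunit of the factor that type I interferon activates, had 7.19 FPKM (STAT6 KO) and 20.8 FPKM (WT) on day 7, and 21.6 FPKM (STAT6 KO) and 9.09 FPKM (WT) on day 5.

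In all 19 genes the WT library of day 7 was at least 2-fold above the WT library of day 5, as in 8.2% of all 8070 entries. The STAT6 KO libraries lay within 2-fold of each other in 14 of the 19, as in 85.6% of all entries. The 19 were chosen on these same values, so these counts describe them and are no test.

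**Figure D4:**
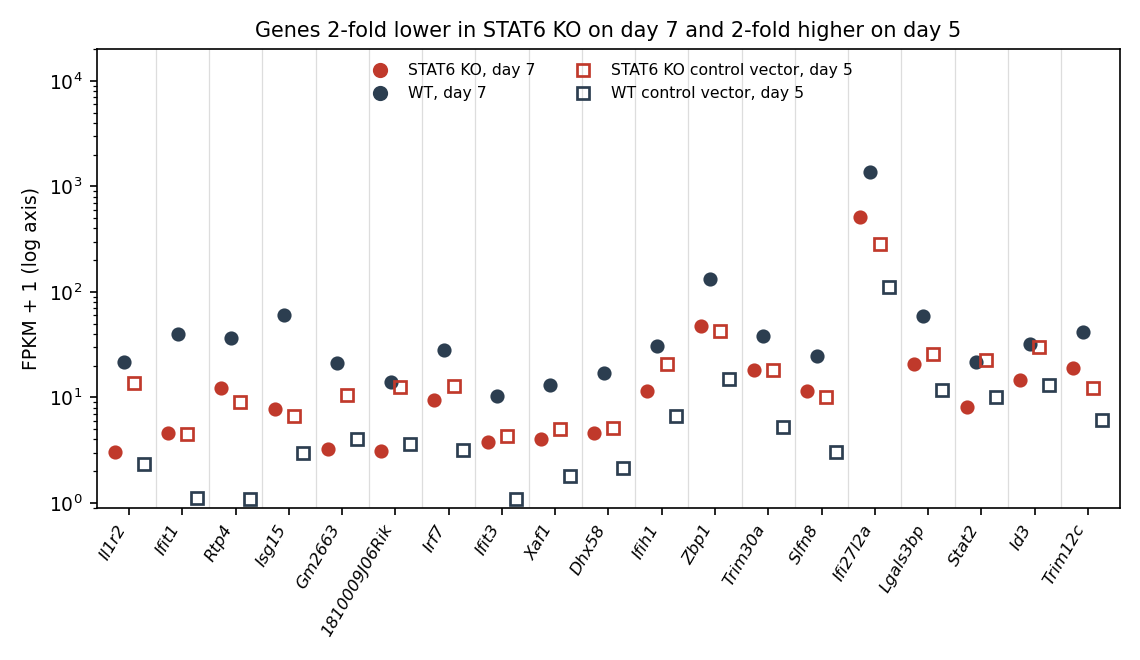
FPKM + 1 (log axis) in each of the 4 libraries for the 19 genes 2-fold lower in STAT6 KO (red) on day 7 (circles) and 2-fold higher on day 5 (squares), WT in dark blue. WT of day 7 is at least 2-fold above WT of day 5 in all 19, and STAT6 KO differs by less than 2-fold between cultures in 14.

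The change of the STAT6 KO difference between cultures was tested as a term added in a second fit over the same 12 libraries. With this term the Th2 libraries are fitted fully, so the spread of this test came from the Th1 libraries alone. Of 10775 entries 2 were called (0.0186%), and 647 had an unadjusted p under 0.05. Both are small RNA genes, Mirlet7d and Mir697, seen in 1 of the 4 libraries each. For Ifit1 the day 7 minus day 5 difference was -5.16 ± 0.94 (adjusted p = 0.40), for Isg15 -4.12 ± 0.36 (adjusted p = 0.15), for Rtp4 -4.62 ± 0.39 (adjusted p = 0.15) and for Irf7 -3.58 ± 0.45 (adjusted p = 0.23). The opposite differences of these genes thus did not pass the test. On simulated data with 10775 genes this term, with 2 residual degrees of freedom, called 0 of 100 genes that differed by 1 (log2). It called 34 of 100 that differed by 2, and 4 unchanged genes. Genes were drawn at random for this, so the shares do not hold for genes with a wide spread, such as Ifit1. Those 4 came beside 34 true calls, so they do not measure how many of the 2 calls made here are false.

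The promoters of Ifit1 and Isg15 are printed because the element GAAANNGAAA, the core of the interferon-stimulated response element, was found in 8 of the 14 promoters (57.1%) matched to the 19 genes (Ifih1, Ifit1, Ifit3, Isg15, Slfn8, Stat2, Trim12c and Trim30a). It was in 259 of 6457 promoters (4.01%) of entries above the 3 FPKM limit and in 1079 of 27025 (3.99%) of the whole table, with both strands searched. It was also in 21 of 118 promoters (17.8%) of genes higher in both cultures and in 5 of 128 (3.91%) of those lower in both. Capitals mark the matches in the 250 bases before the start, 2 in Ifit1 (RefSeq, GRCm38.p6, chr19:34640639-34640888, plus strand) and 3 that overlap in Isg15 (chr4:156200819-156201068, minus strand).
Ifit1: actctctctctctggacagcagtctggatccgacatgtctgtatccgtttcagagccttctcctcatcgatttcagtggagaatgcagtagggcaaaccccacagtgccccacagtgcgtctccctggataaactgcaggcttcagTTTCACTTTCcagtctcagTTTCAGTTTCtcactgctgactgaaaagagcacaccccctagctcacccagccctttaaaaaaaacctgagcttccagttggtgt
Isg15: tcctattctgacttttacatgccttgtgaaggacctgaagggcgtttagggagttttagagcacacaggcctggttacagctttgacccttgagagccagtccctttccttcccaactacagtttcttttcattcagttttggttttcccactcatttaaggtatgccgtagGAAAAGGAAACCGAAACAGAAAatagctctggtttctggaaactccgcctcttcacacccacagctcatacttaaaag

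Beyond the 19, the largest day 7 minus day 5 differences in the negative direction included Gbp6 and Cyp11a1. Gbp6, a guanylate-binding protein gene, had 56.2 FPKM in STAT6 KO and 34.7 FPKM in WT cells on day 7, and 84.3 FPKM in STAT6 KO and 2.79 FPKM in WT cells on day 5. Cyp11a1, which encodes the enzyme that starts steroid synthesis, had 0.344 FPKM (STAT6 KO) and 91.7 FPKM (WT) on day 7, and 0.487 FPKM (STAT6 KO) and 6.81 FPKM (WT) on day 5. It was thus low without STAT6 in both cultures, with a WT level that differed between them.

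In the positive direction stood, among others, Ccr7, Bcl6 and Cd5. Ccr7, the lymph node homing receptor gene, had 142 FPKM in STAT6 KO and 39.9 FPKM in WT cells on day 7, and 73.6 FPKM in STAT6 KO and 107 FPKM in WT cells on day 5. Bcl6, the repressor that defines follicular helper cells, had 11.6 FPKM (STAT6 KO) and 2.14 FPKM (WT) on day 7, and 28.2 FPKM (STAT6 KO) and 30.3 FPKM (WT) on day 5. Cd5, a negative regulator of T cell receptor signalling, had 139 FPKM (STAT6 KO) and 39.4 FPKM (WT) on day 7, and 140 FPKM (STAT6 KO) and 134 FPKM (WT) on day 5. In these 3 genes WT of day 7 was the lowest library. Of the 10 genes with the largest change in each direction, the WT libraries differed by at least 2-fold and by more than the STAT6 KO libraries in 9 and 9. The 20 genes were ranked on these same values, so a large move of a library was part of their choice and the counts are no test. None of the 20 changes passed the test. Among list members that moved on day 7 alone, Il3 had 243 FPKM (STAT6 KO) and 982 FPKM (WT) on day 7, against 501 FPKM (STAT6 KO) and 649 FPKM (WT) on day 5.

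Another STAT6 KO and WT pair, with a GATA3 vector in place of the control vector, shares no library with the other 2 pairs. Of the 153 entries higher in both cultures, 97 (63.4%) were 2-fold higher in STAT6 KO in the GATA3 vector pair (3.47% of all 8070 entries), and their median difference there was 1.25. Of the 163 entries lower in both, 57 (35%) were 2-fold lower there (1.2% of all) and 4 (2.45%) were 2-fold higher (3.47% of all). Their median was -0.70, against 0.06 over all 8070 entries. Of the 163, 65 were above -0.5, for which the share over all entries was not taken. Tbx21 had 24.7 FPKM (STAT6 KO) and 2.08 FPKM (WT) with the GATA3 vector, and Irf8 had 187 FPKM (STAT6 KO) and 20.8 FPKM (WT).

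The cytokine genes had unlike values there. Il4 had 570 FPKM in STAT6 KO and 348 FPKM in WT cells with the GATA3 vector, and Il5 had 208 FPKM (STAT6 KO) and 48.8 FPKM (WT). Il10 had 6.16 FPKM (STAT6 KO) and 84.1 FPKM (WT), and Epas1 0.457 FPKM (STAT6 KO) and 11.3 FPKM (WT). Il4 and Il5 were thus above WT in the STAT6 KO library with the vector, and Il10 and Epas1 below. Whether the STAT6 KO difference itself changed with the vector was tested in the limma fit that gave the mean difference. No entry was called (0%), 689 had an unadjusted p under 0.05, and for Il4 the change was 5.08 ± 0.89 (adjusted p = 0.35), for Asb2 4.35 ± 0.36 (adjusted p = 0.088) and for Epas1 1.67 ± 0.45 (adjusted p = 0.57). On simulated data this term called 3 of 100 genes changed by 1 (log2), 76 of 100 changed by 2 and 3 unchanged genes. The changed genes were drawn at random from those tested, each with its own fitted spread. These shares therefore do not hold for genes with a wide spread, such as Il4. The absence of calls does not show that no difference changed with the vector.

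**Figure D5:**
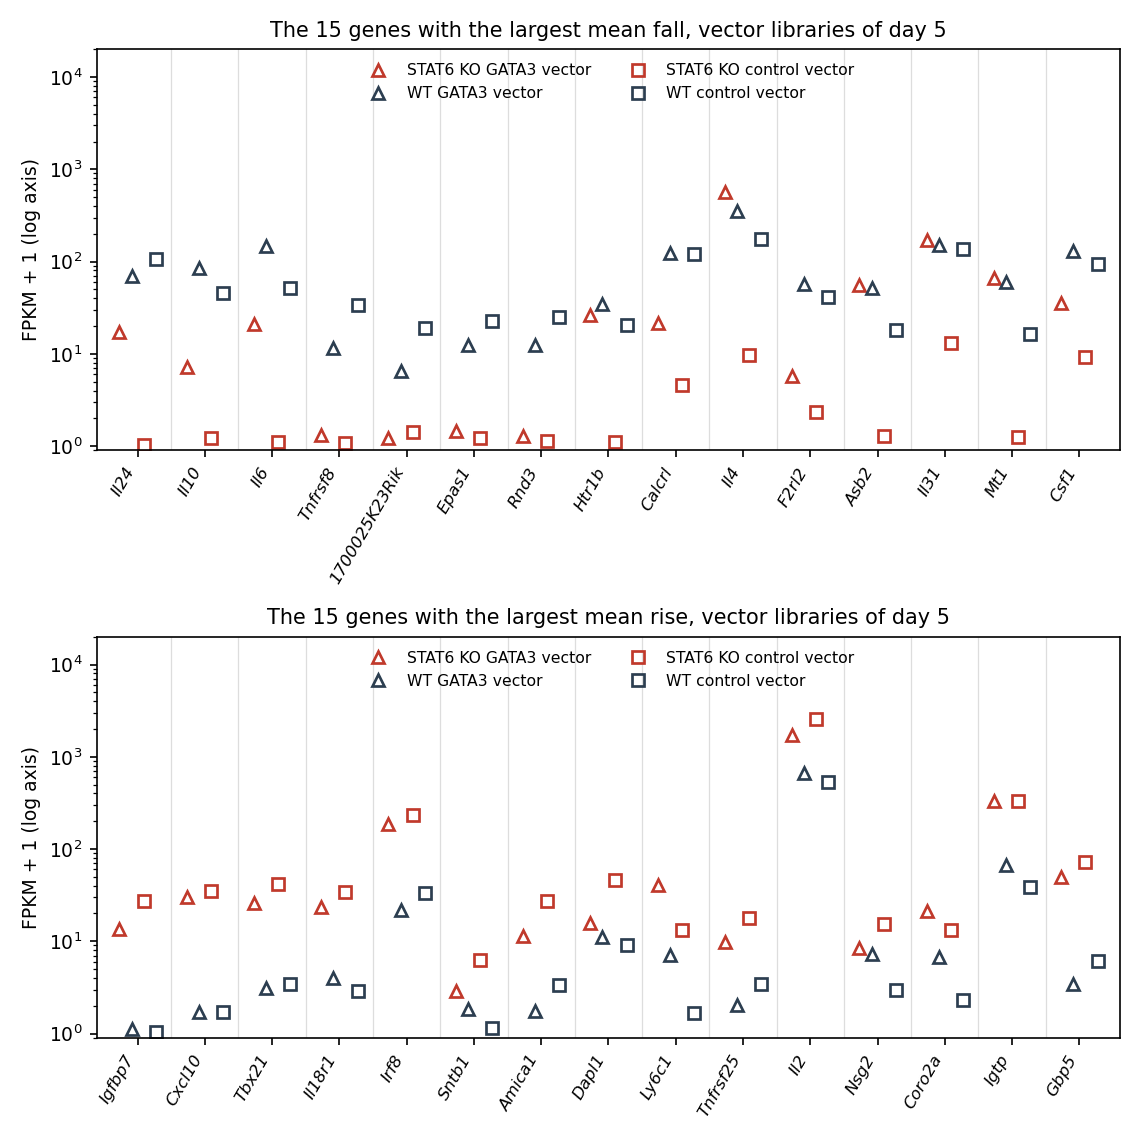
FPKM + 1 (log axis) in the vector libraries of day 5, STAT6 KO in red and WT in dark blue, triangles for the GATA3 vector and squares for the control vector, for the genes with the largest mean fall (top) and rise (bottom). With the GATA3 vector, Il4, Il31, Asb2 and Mt1 in STAT6 KO are at or above WT, whereas Tnfrsf8, Epas1 and Rnd3 are near 0 in STAT6 KO with either vector.

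The STAT4 KO Th1 pairs of the series, which also share no library with these, were compared as another STAT loss. Of the 163 entries lower in both STAT6 KO cultures, 33 (20.2%) were also 2-fold lower in both comparisons of STAT4 KO with WT Th1 cells, on day 7 and on day 5 (1.69% of all entries). Of the 153 entries higher in both, 15 (9.8%) were lower and 6 (3.92%) were higher in both STAT4 KO pairs (0.285% of all were higher).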

How the data were processed

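RNA was measured in 14 libraries of mouse T helper cells, 1 per group except WT Th1. Per the file headers, the deposited gene tables hold FPKM values with intervals from Cufflinks. The submitters' processing notes name mm9 as the build and SICER, TopHat and Cufflinks as tools, with no versions; annotation and strand use were not given there. The tables give no counts, so depth is known only through these intervals: in the 4 libraries the upper bound lay a median of 12.2% to 16.6% above the value at 1 to 3 FPKM and 4.12% to 5.27% at 10 to 30 FPKM, counting error only.

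Entries with a failed estimate in any of 12 libraries (48) were left out. limma 3.58.1 in R 4.3.3 (lmFit, eBayes with a trend) was run on log2(FPKM + 1) over the 10775 entries that reached 1 FPKM in 2 or more libraries, with terms for lineage, culture, lineage by culture, STAT4 KO, STAT6 KO, T-bet vector, GATA3 vector and STAT6 KO by GATA3 vector. The STAT6 KO term is the mean of the 2 pair differences. WT Th1 replicate 2 and T-bet KO Th1 were left out of the fit, a choice made with earlier results of these data known. Small RNA genes held 20.9% and 22.3% of their summed FPKM, against 4.59% to 7.79% in the 12 libraries kept. WT Th1 replicate 2 was the only second RNA library of a group. Each group is 1 library, so the spread comes from departures from additivity (3 residual degrees of freedom). A call is an adjusted p under 0.05, errors are standard errors of the fit, and adjusted p-values are from limma. A second fit added STAT6 KO by culture. On simulated data (10775 genes, 100 changed at each size) the mean fit called 66 genes changed by 1 (log2), 100 changed by 2 and 7 unchanged genes. In each simulation the changed genes were drawn at random from those tested, each with its own fitted spread. The GATA3 vector test was added after the data were seen.

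Named genes were the 15 most positive and 15 most negative called genes 2-fold different in both cultures, the 10 largest culture changes each way among genes with at least 10 FPKM, the members of 24 gene lists, Stat6 and Gata3; the genes with opposite differences were named after their values were seen. The members and lists were chosen with earlier results of these data known. Symbols at several loci (241) and small RNA genes were not named by rule. Of 148, 161 and 19 named-type genes higher in both, lower in both and opposite, 118, 128 and 14 matched a RefSeq promoter (GRCm38.p6). The ChIP samples are not analysed here. Some genes are not reported here.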

Additional observations from a re-analysis of the deposited data

Results flagged for a closer look

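A change of the STAT6 KO minus WT difference between the cultures was called in 2 small RNA genes. On simulated data the same test called 4 unchanged genes beside 34 changed ones, which does not measure how many of the 2 calls are false. For Mirlet7d the day 7 minus day 5 change was 8.04 (log2; limma, adjusted p = 0.015); it had 262 FPKM in STAT6 KO cells on day 7 and was listed at 0 in WT cells on day 7 and in both libraries of day 5. For Mir697 the change was -5.88 (adjusted p = 0.027); it had 57.9 FPKM in STAT6 KO cells on day 5 and was listed at 0 in WT cells on day 5 and in both libraries of day 7, and its locus lies within that of Sf3a3. FPKM of such short entries is large for few fragments, and the call rests on 1 library each. In the GATA3 vector pair, also of day 5, Mirlet7d had 231 FPKM in STAT6 KO and 0 in WT cells. Mir697 had 0 in STAT6 KO and 84.4 FPKM in WT cells there, the reverse of the control-vector pair.

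In opposite directions by size lay 19 genes 2-fold lower in STAT6 KO on day 7 and 2-fold higher on day 5, described in the report, and 3 entries the other way round. The 3 are small RNA genes, Snora21, Snora26 and Mir20a. Snora26 had 180 FPKM (STAT6 KO) and 78.1 FPKM (WT) on day 7, and 104.5 FPKM (STAT6 KO) and 257 FPKM (WT) on day 5. The change did not pass the test in any of these 22 entries.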

How the results depend on the processing

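The count of 425 entries called for the mean STAT6 KO difference was 352 to 510 with other pseudocounts (0.1, 3), scalings, a limit of 3 FPKM or no lineage by culture term. Over 14 libraries with a batch term the count was 301 (185 higher, 116 lower), of which 198 were shared with the main fit (176 higher, 249 lower). It was 41 with no filter on low values, 189 over the 4 Th2 libraries with a culture term, 107 over 14 libraries with additive terms and 53 to 278 with 1 of the 4 libraries left out. Without the culture term, which blocks on the pair (no replicate block), 0 entries were called by limma and 541 had an unadjusted p under 0.05. The 2 calls for a change between cultures became 0 with a pseudocount of 0.1 or a limit of 3 FPKM, 4 with a pseudocount of 3, 54 with no filter and 7 over 14 libraries with a batch term; that term cannot be had with a library of a pair left out. The 0 calls for the GATA3 vector, tested after the data were seen, became 4 with a pseudocount of 3, 272 with no filter and 0 to 15 with 1 library left out. The 316 entries 2-fold different the same way were 194 at 10 FPKM, 699 at 1.5-fold and 138 at 3-fold, and the 273 that differed were 166 at 10 FPKM and 55 at 3-fold. The causes were not tested. Direction was followed under these settings for the 60 named genes called and Stat6 (mean difference) and for 32 genes with large or opposite culture changes. None reversed, and other genes were not followed. For the called means this was largely set beforehand, since most settings keep the same pairs, whose differences shared a sign in all 425 calls. With 1 library a group, low genes and changes of 1 (log2) between cultures are beyond what these libraries resolve.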
